A study of Homo sapiens with 24 samples.

Results

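The genes described here were 10 genes of protein folding in the endoplasmic reticulum (ER) and of the unfolded protein response: HSPA5, HSP90B1, PDIA4, PDIA6, DNAJB9, HERPUD1, SDF2L1, MANF, CRELD2 and XBP1. They were selected by name as known targets of the ATF6 and XBP1 branches, with no threshold on a measured value. Earlier results of these data were known when they were chosen. All 10 were among the 60617 genes of the count table, and each passed the filter on low values that left 15476 genes for testing. The cells were MDA686TU (686Tu), an established line from a head and neck squamous cell carcinoma, in which the study asked what resveratrol and the green tea catechin epigallocatechin gallate (EGCG) change alone and together. RNA-seq was done on 6 libraries in each of 4 groups: no treatment (control), 40 µM EGCG, 15 µM resveratrol, and both agents at those doses (combination), each harvested at 24 h. The study dissolved resveratrol in DMSO and EGCG in water, and no source used here states whether DMSO was given to untreated cells, so solvent and resveratrol cannot be told apart. Nor is it stated whether the 6 libraries of a group came from separate cultures, so the p-values measure only the spread between these libraries.

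Proteins that enter the secretory pathway are folded in the ER by chaperones and by enzymes that form disulfide bonds. When unfolded proteins accumulate, sensors in the ER membrane respond. IRE1 (encoded by ERN1) splices XBP1 mRNA into the form that encodes an active transcription factor, ATF6 is cut to release another, and PERK (encoded by EIF2AK3) slows translation and raises ATF4. ATF6 and XBP1 act on promoters through short sequences such as the ER stress response elements, and their targets include chaperones and the machinery that removes misfolded proteins. Gene-level counts do not separate spliced from unspliced XBP1, and they do not measure protein.

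The promoters carried these elements to different extents. In the 250 bases before 1 RefSeq start site per gene (GRCh38.p14), both strands were searched for 4 motifs, and all 10 genes matched an entry. ERSE, which is CCAAT and CCACG with 9 free bases between them, was found in 22 of 27303 promoters (0.0806%) and in 4 of the 10 genes, namely HSPA5, HSP90B1, CRELD2 and XBP1. ERSE-II, which is ATTGG and CCACG with 1 free base between them, was found in 14 promoters (0.0513%) and in HERPUD1 and SDF2L1. The motif UPRE, spelled TGACGTGG, was in 182 promoters (0.667%) and in 0 of the 10 genes. CARE, the spelling TGATGNAA used for ATF4 and C/EBP family sites, was in 870 promoters (3.19%) and in HERPUD1. PDIA4, PDIA6, DNAJB9 and MANF held neither ERSE nor ERSE-II in this spelling and window. Other start sites of a gene were not searched. For PDIA6 the window, chr2:10832486-10832735, lay inside the span of the gene, chr2:10783391-10837977. The windows of HSP90B1 (chr12:103930160-103930409) and CRELD2 (chr22:49918384-49918633) also lay inside the spans of their genes, as did their ERSE matches. Those of HSPA5, PDIA4, DNAJB9 and XBP1 ran partly into the spans. A match is a description of letters, not a measured binding site. The sequences below are shown because they let the genes that moved in opposite directions be compared; capitals mark the fixed letters of a motif on either strand, and each runs 5′ to 3′ on the strand of its gene.
HSPA5, chr9:125241383-125241593, minus strand, ERSE: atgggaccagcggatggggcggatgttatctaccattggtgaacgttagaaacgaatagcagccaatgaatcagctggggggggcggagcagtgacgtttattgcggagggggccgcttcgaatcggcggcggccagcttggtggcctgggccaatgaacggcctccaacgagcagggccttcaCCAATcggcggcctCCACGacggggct
HERPUD1, chr16:56931892-56932141, plus strand, CARE then ERSE-II: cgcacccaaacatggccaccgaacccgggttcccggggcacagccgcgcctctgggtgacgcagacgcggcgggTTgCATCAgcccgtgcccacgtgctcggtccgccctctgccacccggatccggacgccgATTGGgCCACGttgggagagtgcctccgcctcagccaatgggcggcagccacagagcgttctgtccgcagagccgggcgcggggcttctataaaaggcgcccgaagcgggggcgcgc
SDF2L1, chr22:21642052-21642301, plus strand, ERSE-II: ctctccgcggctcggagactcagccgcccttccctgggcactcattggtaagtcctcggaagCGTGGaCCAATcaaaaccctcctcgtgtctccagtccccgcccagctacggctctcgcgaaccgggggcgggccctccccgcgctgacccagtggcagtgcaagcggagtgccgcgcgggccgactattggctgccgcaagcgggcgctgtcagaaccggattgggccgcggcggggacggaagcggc
CRELD2, chr22:49918439-49918633, plus strand, ERSE: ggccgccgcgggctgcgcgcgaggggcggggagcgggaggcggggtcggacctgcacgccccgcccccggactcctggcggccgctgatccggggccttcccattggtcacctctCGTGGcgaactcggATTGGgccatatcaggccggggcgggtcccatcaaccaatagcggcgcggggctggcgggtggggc
XBP1, chr22:28800598-28800682, minus strand, ERSE: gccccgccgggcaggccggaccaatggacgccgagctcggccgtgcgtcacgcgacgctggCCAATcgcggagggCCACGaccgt
HSP90B1, chr12:103930216-103930234, plus strand, ERSE: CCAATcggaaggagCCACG
HSP90B1, chr12:103930321-103930339, plus strand, ERSE: CGTGGtgcggcgcgATTGG

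Libraries held 7034872 to 11735574 counted reads. The squamous markers KRT5, KRT14, KRT6A, TP63, CDH1 and DSG3 were detected in every library, while the 3 leukocyte genes PTPRC, CD3E and CD14 had a median of 0. Of the 3 endothelial genes, PECAM1 had a median of 0, CDH5 of 1.66 and VWF of 12.7 normalized counts, and VWF was detected in every library. Of the 4 fibroblast genes COL1A1 was the highest, at 875 to 1718 normalized counts, and COL1A2 ran from 12.2 to 28.9. LUM had a median of 7.03 and PDGFRB of 0.972. Mitochondrial genes took 0.249% to 0.326% of counts in replicates 1 to 3 of the groups and 0.448% to 0.775% in replicates 4 to 6. The 6 squamous markers summed to 122772 to 130666 normalized counts in control 118122 to 133877 with EGCG, 102152 to 109174 with resveratrol and 99782 to 107648 with the combination. The sum of the 4 fibroblast genes, most of which was COL1A1 alone, went the other way with resveratrol and the combination. It was 1117 to 1348 in control, 897 to 1114 with EGCG, 1314 to 1559 with resveratrol and 1525 to 1755 with the combination. The part of either in the results below was not tested. No source names the mitochondrial split as a batch, so values within each set of replicates are given beside the calls. In a bulk sample, fewer cells of a type and less RNA per cell cannot be told apart.

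Compared per length, as FPKM (fragments scaled by gene length and library depth), HSPA5 was the most abundant of the 10 in control cells at a median of 267 FPKM. HSP90B1 followed at 172 FPKM, then PDIA4 at 76.9 and PDIA6 at 73.2, whose ranges overlapped. SDF2L1 stood at 49.3 FPKM and XBP1 at 41.3, and these ranges overlapped too. MANF at 24.3, HERPUD1 at 14.7, CRELD2 at 8.72 and DNAJB9 at 2.29 FPKM made up the lower end. With resveratrol the order of XBP1 and SDF2L1 was the other way round, at 55.9 and 40.6 FPKM, and with the combination at 62.1 and 43.0 FPKM, without overlap in either group.

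**Figure D1:**
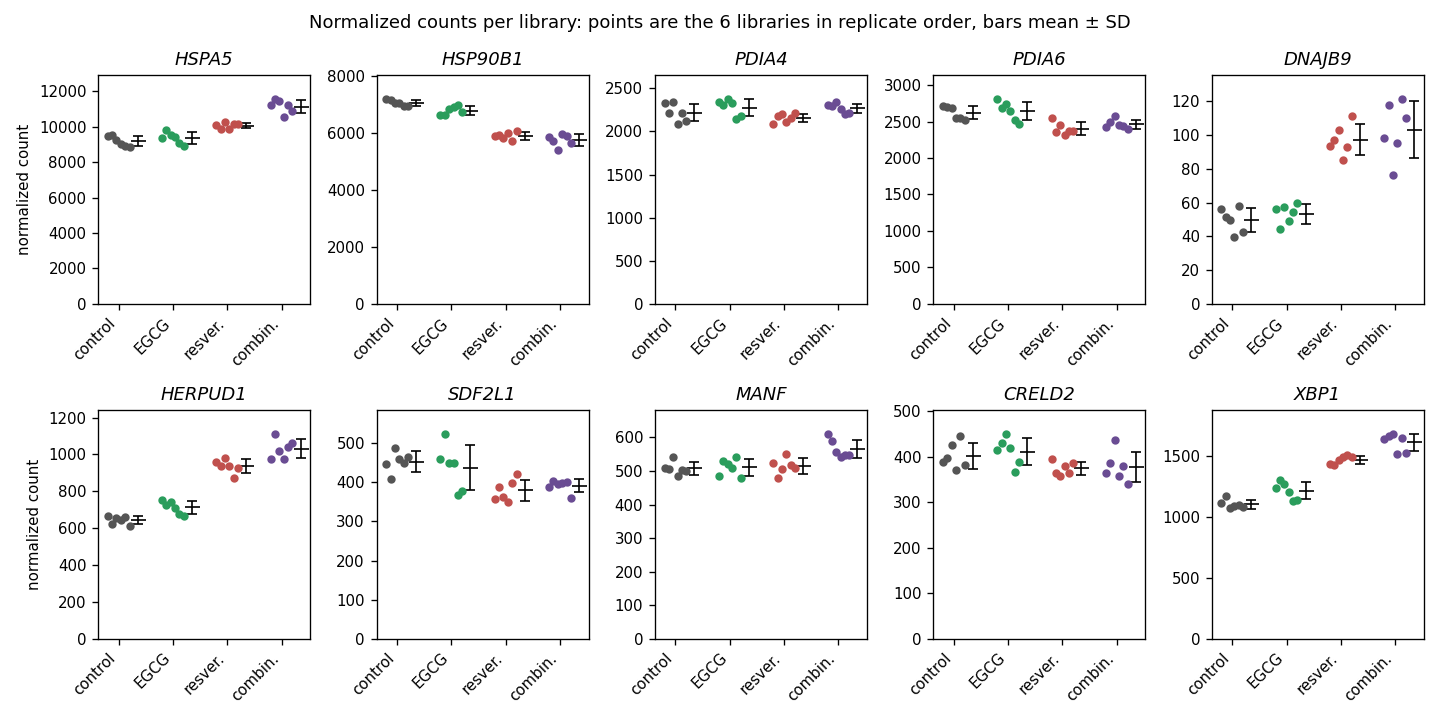
Normalized counts of each of the 10 genes in every library, by group, with the mean and SD beside the points. HERPUD1, XBP1 and DNAJB9 stand higher in the resveratrol and combination libraries than in control, and HSP90B1 stands lower.

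The major luminal chaperones moved in opposite directions. HSPA5 (ENSG00000044574, chr9:125234853-125241382, minus strand) encodes BiP, the ER member of the HSP70 family. Its normalized counts were 8880 at the lowest, 9143 at the median and 9510 at the highest in control, 8898, 9397 and 9819 in EGCG-treated libraries, 9864, 10110 and 10261 under resveratrol, and 10525, 11224 and 11551 under the combination. Resveratrol and combination libraries all lay above every control library, and the combination libraries all lay above every resveratrol library. In edgeR's quasi-likelihood test with Benjamini-Hochberg adjustment over all tested genes, HSPA5 rose by a log2 fold change of 0.14 (SE 0.0259, adjusted p = 3.1e-05) with resveratrol and 0.28 (SE 0.0259, adjusted p = 1.3e-11) with the combination. EGCG alone gave 0.03 (adjusted p = 0.77). Resveratrol gave 0.10 and 0.17 within replicates 1 to 3 and 4 to 6, and the combination gave 0.28 in both. The processed pseudogene HSPA5P1 was counted at 4.31% of HSPA5 in control and 4.29% in the combination, so some reads may be shared.

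HSP90B1 (ENSG00000166598, chr12:103930107-103953931, plus strand) encodes GRP94, the ER member of the HSP90 family. Control libraries ran from 6959 through a median of 7066 to 7191 normalized counts, EGCG from 6637 through 6796 to 6981, resveratrol from 5714 through 5918 to 6093, and the combination from 5423 through 5798 to 5984. Resveratrol and combination libraries all lay below the control range. HSP90B1 fell by 0.25 on the log2 scale with resveratrol (SE 0.0251, adjusted p = 1.1e-10) and fell by 0.29 with the combination (SE 0.0251, adjusted p = 2.4e-12). It overlaps UQCC6 on the opposite strand and TTC41P, and the counting setting for strand is not given in the sources used here. The value for EGCG was -0.05 (adjusted p = 0.43). HSP90B1 within replicates 1 to 3 and 4 to 6 stood at -0.27 and -0.24 with resveratrol and at -0.33 and -0.26 with the combination, and all 4 values passed the test. The processed pseudogenes HSP90B2P and HSP90B3P were counted at 2.52% and 0.741% of HSP90B1 in control. In the combination they stood at 2.33% and 0.674%, so some reads may be shared.

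Set against each other inside each library, the FPKM of HSPA5 was 1.56 ± 0.0286 (SD, n = 6) times that of HSP90B1 in control, 1.65 ± 0.0774 under EGCG, 2.04 ± 0.0660 under resveratrol and 2.32 ± 0.143 under both agents. This ratio does not depend on the scaling between libraries. It was chosen after the values were seen and is given without a test.

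**Figure D2:**
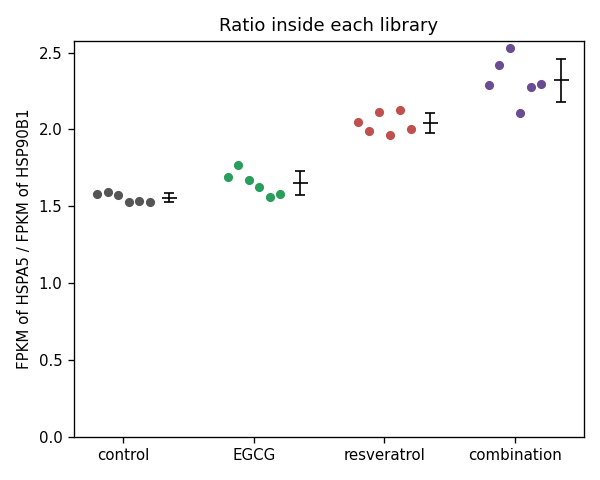
FPKM of HSPA5 divided by FPKM of HSP90B1 in each library (points), with mean and SD of the 6 libraries of a group (bars); the vertical axis starts at 0. Control libraries sit between 1.53 and 1.59 and combination libraries between 2.11 and 2.53.

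Of the other folding factors, SDF2L1 and PDIA6 fell with resveratrol and with the combination, and PDIA4 missed the test. SDF2L1 (ENSG00000128228, chr22:21642302-21644299, plus strand) is part of an ER chaperone complex with BiP. Its lowest, median and highest normalized counts were 407, 455 and 488 in control, 369, 449 and 524 under EGCG, 349, 375 and 422 under resveratrol, and 359, 397 and 404 under both agents. All combination libraries lay below control, while resveratrol overlapped it. SDF2L1 fell by 0.26 on the log2 scale with resveratrol (SE 0.0616, adjusted p = 0.00067) and fell by 0.21 with the combination (SE 0.0622, adjusted p = 0.0041). Within replicates 1 to 3 and 4 to 6 it stood at -0.27 and -0.24 with resveratrol and at -0.17 and -0.25 with the combination, and passed in each. PDIA6 (ENSG00000143870, chr2:10783391-10837977, minus strand), a protein disulfide isomerase, had medians of 2619, 2660, 2368 and 2444 in control, EGCG, resveratrol and combination, with overlap between each treated group and control. It fell by 0.12 (SE 0.0319, adjusted p = 0.0016) and fell by 0.09 (SE 0.032, adjusted p = 0.022) with resveratrol and the combination. The call in the combination was lost within replicates 4 to 6 (-0.06, adjusted p = 0.18), with at least 10 counts in every library (-0.06, adjusted p = 0.10) and under scaling by library size alone (-0.00), where the resveratrol call was lost too (-0.03). PDIA4 (ENSG00000155660, chr7:149003062-149028662, minus strand), another disulfide isomerase, had medians of 2213, 2313, 2164 and 2275. It did not pass in any comparison with control, at -0.04 with resveratrol (95% interval -0.10 to 0.02) and 0.03 with the combination (-0.03 to 0.10).

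XBP1, HERPUD1 and DNAJB9 gave the largest increases of the 10 genes. XBP1 (ENSG00000100219, chr22:28794555-28800597, minus strand) is the transcription factor gene whose mRNA IRE1 splices. Control libraries lay between 1068 and 1167 normalized counts with a median of 1092, EGCG between 1132 and 1299 with a median of 1220, resveratrol between 1420 and 1503 with a median of 1476, and the combination between 1511 and 1676 with a median of 1640. Each of the resveratrol and combination groups lay wholly above control, and the combination wholly above resveratrol. XBP1 rose by 0.42 (SE 0.0358, adjusted p = 3e-12) with resveratrol and 0.55 (SE 0.0358, adjusted p = 1.4e-15) with the combination. In the sets of replicates 1 to 3 and 4 to 6 XBP1 rose by 0.38 and 0.46 with resveratrol and by 0.58 and 0.52 with the combination.

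HERPUD1 (ENSG00000051108, chr16:56932142-56944864, plus strand) encodes an ER membrane protein of ER-associated degradation. The lowest, median and highest counts were 612, 649 and 663 in control, 665, 719 and 752 under EGCG, 872, 938 and 979 under resveratrol, and 975, 1030 and 1110 under both agents. All 3 treated groups lay above control. The log2 fold changes were 0.55 (SE 0.039, adjusted p = 2.4e-14) for resveratrol and 0.68 (SE 0.039, adjusted p = 3.2e-17) for the combination. Taken by set, replicates 1 to 3 and then 4 to 6, HERPUD1 rose by 0.58 and 0.51 with resveratrol and by 0.69 and 0.68 with the combination. DNAJB9 (ENSG00000128590, chr7:108569867-108574850, plus strand), a J-domain partner of BiP, was the least abundant of the 10 in control. It ran from 39.8 through 50.6 to 57.7 normalized counts in control, 44.2 through 55.5 to 59.9 under EGCG, 85.1 through 95.5 to 112 under resveratrol, and 76.3 through 104 to 121 under both agents. Resveratrol and combination did not overlap control. DNAJB9 rose by 0.97 (SE 0.109, adjusted p = 1.7e-09) and 1.05 (SE 0.109, adjusted p = 3e-10). Within replicates 1 to 3 and 4 to 6 resveratrol gave 0.91 and 1.04, and the combination 0.88 and 1.22.

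MANF and CRELD2 encode secreted or luminal proteins that are released from stressed cells. MANF (ENSG00000145050, chr3:51385291-51389397, plus strand) had medians of 505 in control, 516 under EGCG, 515 under resveratrol and 552 under both agents. It rose with the combination by 0.16 (SE 0.0418, adjusted p = 0.0017), while resveratrol alone gave 0.02 (95% interval -0.06 to 0.10). The combination gave MANF values of 0.18 and 0.13 within replicates 1 to 3 and 4 to 6, and both passed. Combination libraries (542 to 610) and control libraries (487 to 543) touched on normalized counts but did not overlap on the log2 CPM scale. CRELD2 (ENSG00000184164, chr22:49918167-49927540, plus strand) had medians of 393, 416, 372 and 371. Its changes against control missed the test, at -0.10 with resveratrol (95% interval -0.21 to 0.01) and -0.08 with the combination (-0.19 to 0.03). Within replicates 4 to 6 alone the combination gave -0.16 (adjusted p = 0.079), and without combination replicate 3 it gave -0.14 (adjusted p = 0.030). CRELD2 overlaps ALG12 on the opposite strand.

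Counted together, 2 of the 10 genes passed with EGCG, HERPUD1 and XBP1, both higher, beside 1.76% of all tested genes called, 0.905% higher and 0.859% lower. At an unadjusted p under 0.05 EGCG counted 3 of the 10, beside 10.1% of all tested genes. With resveratrol 4 rose and 3 fell, beside 56.9% of all tested genes called, 28.9% higher and 28% lower. With the combination 5 rose and 3 fell, beside 59.8% of all tested genes called, 29.9% higher and 29.9% lower. Scaled by library size alone, 5 rose and 2 fell with resveratrol and 6 rose and 2 fell with the combination. Against that background the counts with resveratrol and the combination describe the 10 genes and set them apart from no others. The 2 calls with EGCG stood beside a much smaller share, and both were lost when certain single libraries were left out, as given below. Groups did not overlap for 1, 5 and 6 of the 10 genes on normalized counts, beside 1.58%, 31% and 31.9% of all tested genes, and for 7 in the combination on the log2 CPM scale. The median log2 fold change of the 10 was 0.03 for EGCG, -0.01 for resveratrol and 0.10 for both agents, beside 0.00, 0.00 and -0.00 over all tested genes. These comparisons share the control libraries.

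**Figure D3:**
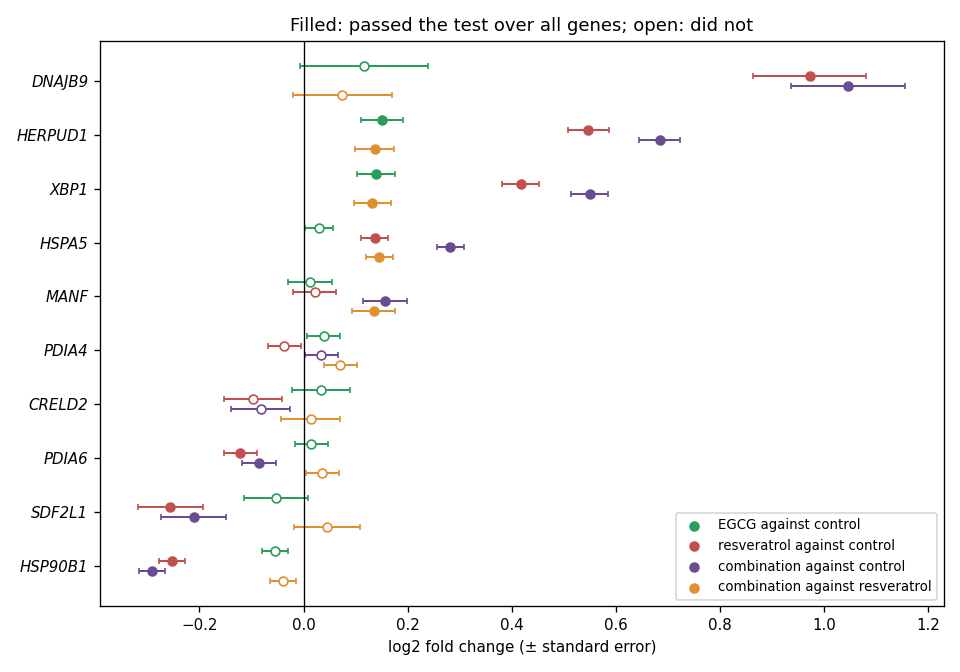
Fitted log2 fold changes of the 10 genes with their standard errors in 4 of the comparisons; filled points passed the test and open points did not. DNAJB9, HERPUD1 and XBP1 lie to the positive side and HSP90B1 and SDF2L1 to the negative side for resveratrol as for both agents.

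EGCG alone gave small changes. HERPUD1 rose by 0.15 (SE 0.0401, adjusted p = 0.047) and XBP1 by 0.14 (SE 0.0363, adjusted p = 0.042), the first without and the second with overlap of the groups. Both calls were lost when EGCG replicate 1, 2 or 3 was left out, HERPUD1 also without control replicate 2 or 6, and XBP1 also without control replicate 3. In those fits HERPUD1 stood at 0.13 to 0.15 (adjusted p = 0.11 to 0.17) and XBP1 at 0.12 to 0.13 (adjusted p = 0.10 to 0.14). Within replicates 1 to 3 HERPUD1 gave 0.20 (adjusted p = 0.17) and XBP1 0.19 (adjusted p = 0.082), and within replicates 4 to 6 they gave 0.10 (adjusted p = 0.73) and 0.08 (adjusted p = 0.71).

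Adding EGCG to resveratrol raised 4 of the 10 genes, beside 7.86% of all tested genes called, 4.01% higher and 3.86% lower. At an unadjusted p under 0.05 it counted 5, PDIA4 being the other (0.07, adjusted p = 0.22), beside 18.2%. HSPA5 rose by 0.15 (SE 0.0259, adjusted p = 0.00033), HERPUD1 by 0.14 (SE 0.0376, adjusted p = 0.025), XBP1 by 0.13 (SE 0.0351, adjusted p = 0.019) and MANF by 0.14 (SE 0.0416, adjusted p = 0.049). Groups did not overlap for HSPA5 and XBP1, beside 3.2% of all tested genes. The MANF call was lost without resveratrol replicate 2, combination replicate 1 or combination replicate 2 (0.11 to 0.12, adjusted p = 0.11 to 0.15), and with the filter dropped for all genes that had any count (adjusted p = 0.13). Within replicates 1 to 3 the HERPUD1 call was lost (0.11, adjusted p = 0.29), and HSPA5 (0.18, adjusted p = 0.0042), XBP1 (0.20, adjusted p = 0.013) and MANF (0.22, adjusted p = 0.060) passed. Within replicates 4 to 6 HERPUD1 passed (0.17, adjusted p = 0.064), and the calls for HSPA5 (0.11, adjusted p = 0.11), XBP1 (0.06, adjusted p = 0.66) and MANF (0.05, adjusted p = 0.83) were lost. DNAJB9, at 0.07, had a 95% interval of -0.11 to 0.26.

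Adding resveratrol to EGCG changed 9 of the 10 genes, 5 higher and 4 lower, beside 57.8% of all tested genes called, 28.7% higher and 29.1% lower. DNAJB9 rose by 0.93, HERPUD1 by 0.53, XBP1 by 0.41, HSPA5 by 0.25 and MANF by 0.14 (adjusted p = 0.004). HSP90B1 fell by 0.24, SDF2L1 fell by 0.16 (adjusted p = 0.032), CRELD2 fell by 0.12 (adjusted p = 0.085) and PDIA6 fell by 0.10 (adjusted p = 0.0082). PDIA4 stood at -0.00. Groups did not overlap for 6 genes, beside 27.5% of all tested genes. Within replicates 4 to 6 alone 5 genes passed, and the calls were lost for MANF (0.09, adjusted p = 0.23), SDF2L1 (-0.03, adjusted p = 0.77), PDIA6 (-0.07, adjusted p = 0.17) and CRELD2 (-0.11, adjusted p = 0.23). Within replicates 1 to 3 alone the CRELD2 call was lost (-0.11, adjusted p = 0.24). Scaled by library size alone, 6 rose and 1 fell. The CRELD2 call was lost in 10 of the fits that left out a library (-0.12 to -0.08), the SDF2L1 call without EGCG replicate 1 or 2 (-0.12 and -0.09), and the PDIA6 call without EGCG replicate 1 (-0.06). The interaction, which asks whether the combination departs from the sum of the single agents' log2 changes, was called for 0 of the 10 genes by edgeR, beside 0.265% of all tested genes, 0.207% higher and 0.0582% lower. At an unadjusted p under 0.05 it counted 2, HSPA5 (0.12, SE 0.0367, edgeR adjusted p = 0.32) and MANF (0.12, SE 0.0592, edgeR adjusted p = 0.64), beside 7.72% of all tested genes.

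Other genes of the same pathways were taken from 9 lists of 96 genes, also chosen with earlier results of these data known. Their counts stand beside 28.9% of all tested genes called higher and 28% lower with resveratrol (56.9% in all), and 29.9% higher and 29.9% lower with the combination (59.8% in all). Of the UPR sensor genes, 3 of 6 rose and 1 fell under resveratrol, and the counts were the same under both agents; 4 of 6 called is near the share of all tested genes. ERN1, which encodes IRE1, rose by 0.47 (adjusted p = 3.9e-06) with resveratrol and 0.65 (adjusted p = 6.6e-09) with the combination. EIF2AK3 rose by 0.42 and 0.43, and MBTPS1, a protease that cuts ATF6, by 0.36 and 0.34. ATF6 itself fell by 0.10 (adjusted p = 0.042) and fell by 0.13 (adjusted p = 0.0077).

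Genes of ER-associated degradation, which draws misfolded proteins out of the ER for destruction, rose in most of the list. With resveratrol 12 of 15 tested genes rose and 1 fell, with a median of 0.25, and with the combination 13 rose and 1 fell, with a median of 0.22, beside 28.9% and 29.9% of all tested genes called higher. SEL1L, a subunit of the retrotranslocation complex, went from 1294 ± 54.2 (SD, n = 6) normalized counts in control to 1705 ± 86.1 under resveratrol and 1855 ± 156 under both agents. EDEM1, which marks glycoproteins for removal, went from 415 ± 29.8 to 583 ± 16.6 and 639 ± 46.1. The ubiquitin ligase gene SYVN1 rose by 0.32 and 0.36, and AUP1 fell by 0.17 and fell by 0.15. EGCG alone changed 0 of the 15 genes in edgeR's test, and the combination against resveratrol also 0.

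Folding lists were mixed, beside 56.9% of all tested genes called with resveratrol and 59.8% with the combination. Among 15 disulfide formation genes 6 rose and 5 fell under resveratrol. Under both agents the counts were the same, but the genes that fell differed in part. ERO1A and PDIA3 fell with resveratrol only, and TMX1 and TMX3 with the combination only. P4HB stood at 0.13 and 0.22. ERO1B, an oxidase gene, stood at 0.96 and 1.01 but was low, at 18.9 ± 5.40 (SD, n = 6) normalized counts in control. ERO1A went from 1797 ± 115 in control to 1624 ± 58.0 under resveratrol and 1745 ± 162 under both agents. Of 9 HSP70 partners of the ER, 4 rose and 1 fell with resveratrol, and 4 rose and 0 fell with the combination. HYOU1, an ER chaperone gene, rose by 0.12 (adjusted p = 0.015) when EGCG was added to resveratrol. Of 8 lectin chaperone and glycoprotein quality control genes, 2 rose and 2 fell with resveratrol, and 3 rose and 1 fell with the combination. CANX, the lectin chaperone calnexin, fell by 0.12 and fell by 0.10. Among 13 translocon and signal peptidase genes 2 rose and 5 fell, then 2 rose and 4 fell. Of 10 COPII and secretory traffic genes 5 rose with resveratrol and 7 with the combination, and 0 fell.

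In the PERK and ATF4 arm 7 of 8 genes rose with resveratrol (median 0.62) and 7 with the combination (median 0.93), DDIT3 by 0.83 and 1.08, beside 28.9% and 29.9% of all tested genes called higher. ASNS missed the test in both. EGCG alone raised 3 of the 8, CHAC1, SESN2 and TRIB3, beside 0.905% of all tested genes called higher. Adding EGCG to resveratrol raised 6 of the 8, beside 4.01%. Heat shock chaperone genes went the other way, with 9 of 11 falling with resveratrol and with the combination (medians -0.26 and -0.34). All tested genes called lower stood at 28% and 29.9%. This list was mostly cytosolic, but HSPD1 and HSPE1, both among the 9, encode mitochondrial chaperonins.

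**Figure D4:**
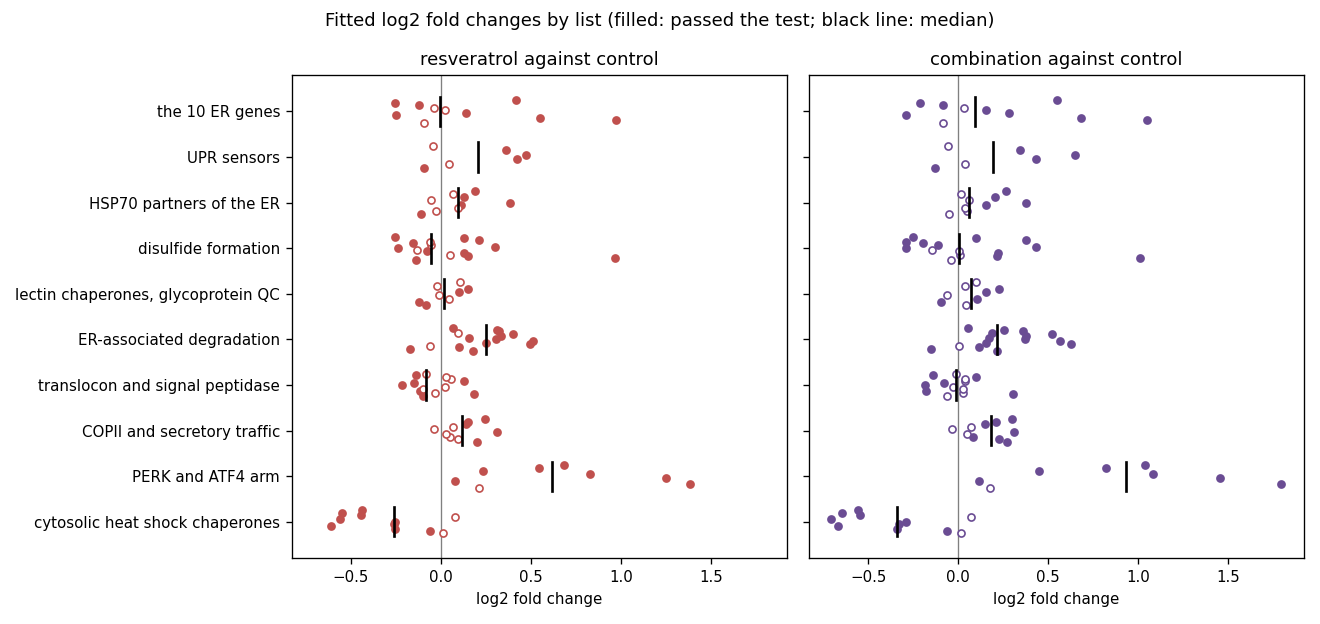
Fitted log2 fold changes for every tested gene of the lists, with resveratrol (left) and the combination (right) against control. Filled points passed the test, open points did not, and black lines are medians. The ER-associated degradation list has medians of 0.25 and 0.22. The list of cytosolic heat shock chaperones includes the mitochondrial chaperonin genes HSPD1 and HSPE1.

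Across the 24 libraries the members did not vary as 1 block. HERPUD1 and XBP1 correlated at r = 0.963 and HSPA5 and XBP1 at r = 0.944, while HSPA5 and HSP90B1 stood at r = -0.878. After group means were removed, HSPA5 and XBP1 stood at r = 0.832, HERPUD1 and XBP1 at r = 0.292, and HSPA5 and HSP90B1 at r = -0.308. HSPA5, HERPUD1 and XBP1 each stood 0.05 higher on the log2 scale in replicates 1 to 3 than in 4 to 6 after that removal. HSP90B1 stood at -0.02. The part of this split in the correlations was not tested. The points share treatment groups, library scaling and the sets of replicates, and the values are descriptions without a test. The tested genes most like the mean standardised log2 level of the 10 were TMEM179B (r = 0.848), TMED9 (r = 0.835), ADPRS (r = 0.810), PTTG1IP (r = 0.803) and MYBL2 (r = 0.799), over 24 libraries.

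Read beside the promoter letters, the genes with an ERSE or ERSE-II did not share a direction. HSPA5, HERPUD1 and XBP1 rose with resveratrol and the combination, HSP90B1 and SDF2L1 fell, and CRELD2 missed the test. DNAJB9, with the largest rise of the 10 in both comparisons, held neither motif in the window searched.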

How the data were processed

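The authors trimmed reads with Trimmomatic 0.36 and aligned them to GRCh38 with HISAT2 2.0.4, per the labels' processing notes, which also list bcl2fastq 2.17.1.14, FastQC 0.11.5, SAMtools 1.3.1 and DESeq2 1.20.0. The counting program, its strand setting and the annotation release are not given in the sources used here. The deposited files held raw read counts per Ensembl gene, a normalized signal that equals the counts divided by 1 factor per library, and FPKM made by the authors from that signal. IDs were paired with symbols for 60261 of 60617 genes. Gene positions are from GENCODE on GRCh38 and promoters from RefSeq on GRCh38.p14.

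Raw counts were tested in edgeR 4.0.16 (R 4.3.3; TMM, filterByExpr, quasi-likelihood) with all 24 libraries in 1 fit and no covariate. Calls required an adjusted p (Benjamini-Hochberg) below 0.1 together with an unadjusted p below 0.05. Intervals are 1.96 standard errors to either side. Levels are the authors' normalized counts. Whether groups overlap was first judged on the log2 CPM scale and, after values were seen, changed to the normalized counts that are printed; both are given where they differ. The test was tested on simulated data. All 10 members, any gene of the 9 other lists, and the 5 genes most like the members' mean were named. Members and lists were chosen with earlier results of these data known. Alternatives were DESeq2 1.42.0, other scalings, filters and thresholds, the groups compared alone, a replicate block, a batch term, each set of replicates alone, each library left out and, chosen after seeing the data, HSPA5 summed with HSPA5P1.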

Additional observations from a re-analysis of the deposited data

Results flagged for a closer look

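SDF2L1 in combination replicate 6 stood apart from its group. Its normalized count was 359, below the nearest library at 389 and the highest at 404, so that the gap took 0.669 of the group's range, past Dixon's critical value for groups of this size. It was the only such case in 40 groups of 6 libraries, and chance flags about 1 group in 20.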

How the results depend on the processing

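The number of members called kept within 1.5 times its value under DESeq2, the other scalings, filters, thresholds and batch term, with these exceptions. EGCG against control gave 1 in replicates 1 to 3 and 0 in replicates 4 to 6. Combination against resveratrol gave 1, and combination against EGCG 5, in replicates 4 to 6. The interaction gave 2 at unadjusted p. With each library left out in turn the counts ran from 0 to 2 (EGCG), 7 to 7 (resveratrol), 8 to 9 (combination), 3 to 4 (combination against resveratrol), 6 to 9 (combination against EGCG) and 0 to 0 (interaction). Direction changed only for members that were not called in the main fit. In replicates 1 to 3 these were SDF2L1 0.0906 and MANF -0.0162 with EGCG, MANF -0.0404 with resveratrol and DNAJB9 -0.0257 in combination against resveratrol. In replicates 4 to 6 they were CRELD2 -0.0431 with EGCG, PDIA4 0.0102 with resveratrol, SDF2L1 -0.0134 and CRELD2 -0.0721 in combination against resveratrol, and PDIA4 0.00947 in combination against EGCG. Library size alone gave PDIA4 0.0511 (resveratrol) and 0.0715 (combination against EGCG) and CRELD2 0.000586 (combination), and moved the median of all genes by 0.09 and 0.08. PDIA4 passed in combination against EGCG under that scaling, as 1 of the 6 genes called higher there. At least 10 counts in every library gave PDIA4 0.0224 (combination against EGCG). Libraries left out gave PDIA6 -0.00475 to 0.0305 and MANF -0.00682 to 0.0326 (EGCG), CRELD2 -0.0386 to 0.0446 (combination against resveratrol) and PDIA4 -0.0234 to 0.0228 (combination against EGCG). The cause was not tested.

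With the replicate number as a block, the members called were 2, 7, 8, 4, 9 and 0 in the 6 comparisons, as without it, while calls over all genes went from 273 to 370 with EGCG and from 41 to 85 for the interaction. Same-numbered libraries correlated at -0.0111 to 0.131 in 36 pairs (median 0.0488), with 2 over the limit of 0.1 used here. By that limit the numbers were not taken as pairing the samples. In 15 of 36 cases a library correlated best with its own number, out of 6 candidate numbers. Whether this is more than expected without pairing was not tested.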
